A study of Homo sapiens with 4 samples.

Results

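The nuclear genes for the subunits of the mitochondrial respiratory chain were described in 4 RNA sequencing libraries. Members were chosen by symbol: NDUFA, NDUFB, NDUFC, NDUFS and NDUFV genes, SDHA to SDHD, UQCR genes, CYC1, CYCS, COX4 to COX8 genes and ATP5 genes, without pseudogenes and hyphenated names. The rule gave 82 of the 20329 genes analysed, and 81 of them passed a filter of a mean of at least 1 FPKM over the 4 libraries (fragments scaled to transcript length and to library size). Complex I had 36 members, complex II had 4, complex III had 10, complex IV had 13, complex V had 17 and cytochrome c had 1. NDUFA4 was counted with complex IV, and ATP5S and ATP5SL, which carry the name of complex V but are not subunits, were counted with complex V. The only member below the filter was NDUFA4L2, a paralog of NDUFA4, with control and knockdown values of 0.0338 and 0.050 FPKM in BM1, and 0.0698 and 0.00785 FPKM in LM2. Wherever a pair of values is given for a line, the control comes first and the knockdown follows.

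The libraries came from BM1 and LM2 cells, which are derivatives of MDA-MB-231, a triple-negative human breast cancer line. The labels describe BM1 as a bone metastasis derivative and LM2 as a lung metastasis derivative. For each line there was 1 control library, of cells stably expressing a non-specific shRNA, and 1 knockdown library, of cells stably expressing an shRNA to hnRNPM, an RNA-binding protein that the series title ties to alternative splicing. All cells, controls included, thus carried a lentiviral vector, and the sources used here do not give the shRNA sequence or the number of shRNAs. With 1 library per line and treatment, a change within a line compares a single pair of libraries and has no replicate check. The p-values below measure only the spread between these libraries.

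Electrons enter the chain from NADH at complex I and from succinate at complex II, pass to ubiquinone, then through complex III and cytochrome c to complex IV, where oxygen is reduced to water. Complexes I, III and IV pump protons across the inner mitochondrial membrane, and complex V, the ATP synthase, uses the returning protons to make ATP. Most subunits are encoded in the nucleus, complex II entirely so, while the mitochondrial genome encodes core subunits of the other complexes. Tumour cells commonly make much of their ATP by glycolysis and still use the chain for ATP, redox balance and nucleotide synthesis.

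The steps of the low FPKM values put the depth of the libraries at between 22800000 and 41400000 fragments. HNRNPM, the targeted gene, fell to 28.4 from 171 FPKM in BM1 and to 20.3 from 132 FPKM in LM2, which is -2.59 ± 0.25 over both lines (log2, standard error, limma, adjusted p 0.00318). With all 4 libraries kept, its adjusted p in limma was 0.213 in an unpaired fit, 0.220 with no filter, 0.0596 after quantile normalization and 0.0550 at a pseudocount of 0.1. In unpaired fits that also omitted 1 library it lay between 0.226 and 0.613. VIM, a marker of mesenchymal cells, stood at 2354 and 1160 FPKM in BM1, with 1575 and 1795 FPKM in LM2. CD44 lay between 155 and 223 FPKM and EGFR between 31.4 and 80.6 FPKM. ERBB2, one of the 3 receptors used to define triple-negative tumours, was at 13.5 to 21.9 FPKM, and ESR1 and PGR were not analysed here. Of 8 markers of blood, endothelial and fibroblast cells, only COL1A1 could be analysed. It stood at 1.94 and 11.1 FPKM in BM1, with 29.2 and 74.2 FPKM in LM2, and its part in the results was not tested.

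The nuclear subunit genes were abundant. Their median level was 63.9 FPKM (mean over the 4 libraries, 81 genes), against 9.15 FPKM over all 13928 genes tested. They took between 1.48% and 1.64% of the summed FPKM of a library. Summed over the members, the level was 7481 and 6787 FPKM in BM1 and 6425 and 6667 FPKM in LM2. The sum was thus highest in the BM1 control, and the other libraries lay close to each other. In bulk RNA, fewer cells with a transcript and less of it per cell cannot be told apart.

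The subunits of a complex assemble at fixed ratios, and the spread of their transcript levels differed between complexes. Complex II, with 4 genes, was the narrowest in the BM1 control, with a 2.61-fold range, and had a 1.75-fold range in the LM2 knockdown. In the BM1 knockdown its range was 12.1-fold and in the LM2 control 5.51-fold, with SDHC the lowest gene in each library. Ranges over more genes tend to be wider, so the complexes are not compared on equal terms. In the BM1 control, complex I genes ran from 11.4 FPKM (NDUFA9) to 216 FPKM (NDUFS5), a 19.0-fold range. NDUFS5 was the highest complex I gene in each of the 4 libraries. Complex III without the retrocopy UQCRHL ran in the BM1 control from 34.4 FPKM (UQCRFS1) to 255 FPKM (UQCRH), and the subunits of complex V from 33.2 FPKM (ATP5D) to 463 FPKM (ATP5B). ATP5B, which encodes the catalytic beta subunit, headed complex V in each library. The head of complex IV was COX6A1 in both BM1 libraries (382 and 366 FPKM) and COX8A in both LM2 libraries (382 and 329 FPKM). The order of the members was similar between libraries: Spearman's rho of their levels lay between 0.87 and 0.94 over the 6 pairs of libraries (81 genes, which share each library's depth and preparation).

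**Figure D1:**
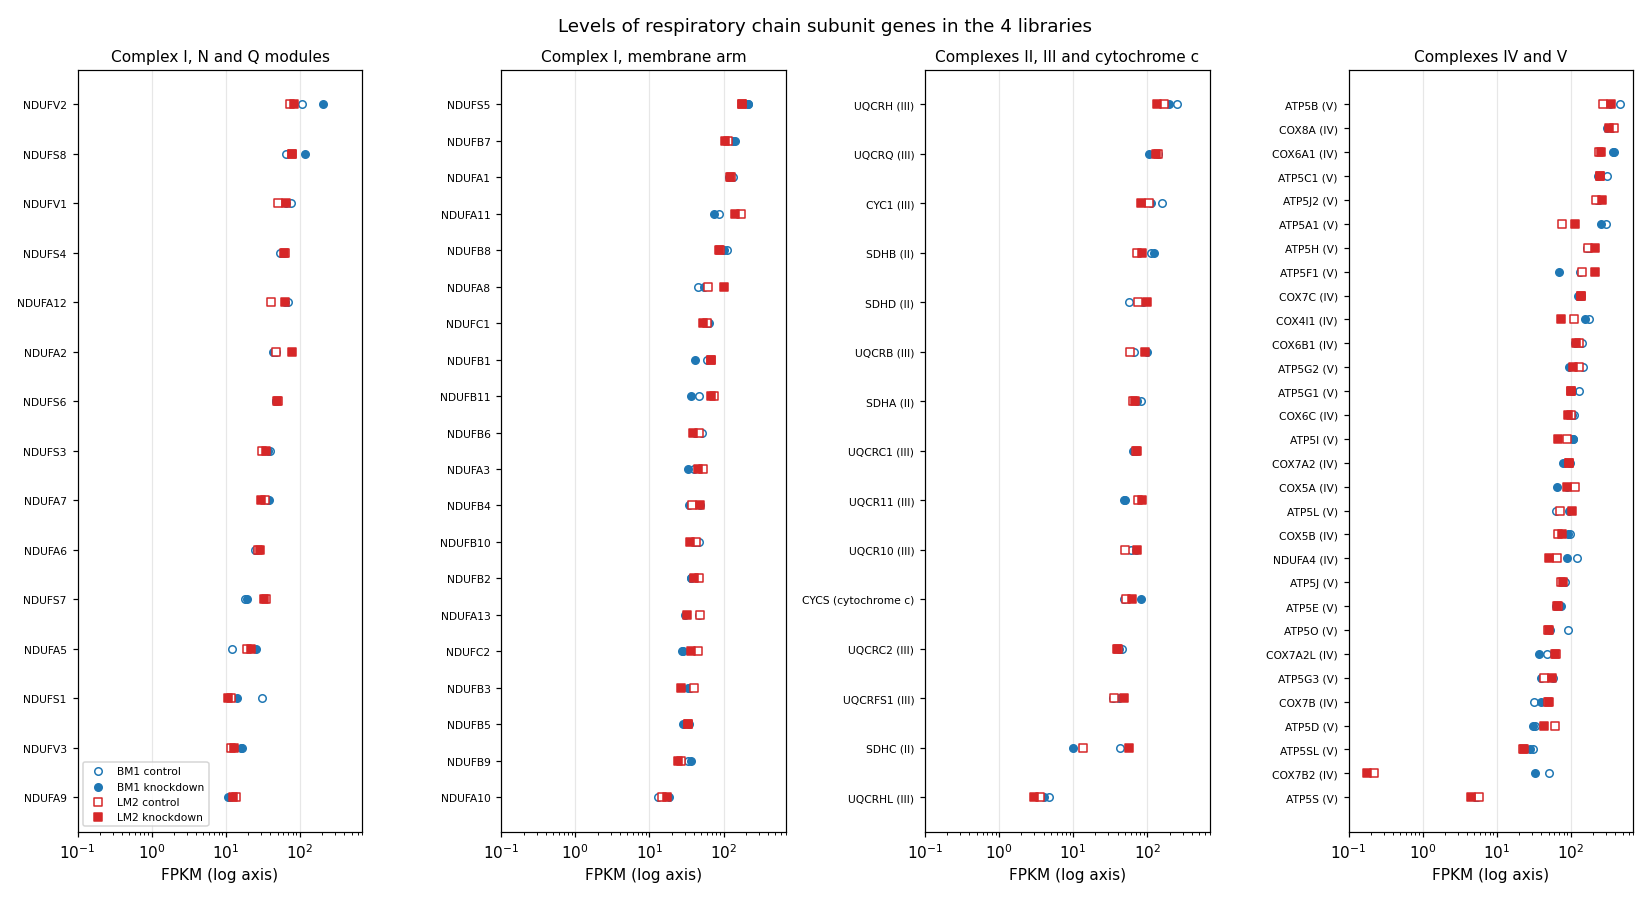
FPKM of 80 of the 81 nuclear respiratory chain genes above the filter (log axis) in the BM1 control (open circle), BM1 knockdown (filled circle), LM2 control (open square) and LM2 knockdown (filled square) libraries, with genes ordered by mean level in each panel. For most genes the 4 points lie close together, while COX7B2 lies far lower in both LM2 libraries and SDHC lies low in the BM1 knockdown and LM2 control libraries.

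Promoter sequences were read next, because nuclear subunit genes are known for sites of the transcription factors NRF1 (nuclear respiratory factor), GABPA (also called nuclear respiratory factor 2 alpha) and YY1. In the RefSeq table (GRCh38.p14), 65 of the 82 members had a promoter window of 250 bases before to 50 bases after the gene's start. A form of the NRF1 motif, the 10 letters in capitals in the NRF1 lines below with any base at the sixth place, stood on either strand in 15 of the 65 (23.1%), against 6.3% of all 27305 windows in the table and 12.3% of the 9840 windows of tested genes. CCGGAAGT, a form of the GABPA motif, stood in 9 (13.8%, against 4.4% and 9.4%), and AAGATGGCG, a form of the YY1 motif, stood in 8 (12.3%, against 1.8% and 4.2%). The YY1 string ends in letters with which the NRF1 string begins, so those can overlap, but no matches of different motifs overlapped in the members. A match is a description of letters, not a site shown to be bound. The YY1 matches lay after the gene's start, between bases 11 and 34, except that of ATP5J (-57 to -49). Their place relative to the start of translation was not examined. At least 1 of the motifs stood in 28 windows and none in 37. Both an NRF1 and a GABPA match stood in 2 windows, those of SDHD and UQCR11. The sites below belong to genes whose levels are described next, with 6 flanking bases on each side in lower case and the motif in capitals, each read 5′ to 3′ on the strand given.
SDHD, NRF1 motif, chr11:112086757-112086778, plus strand: gtgtttGCGCATGCGCgacggg
SDHD, GABPA motif, chr11:112086789-112086808, minus strand: ggtgaaCCGGAAGTcgagag
SDHA, NRF1 motif, chr5:218148-218169, plus strand: cgctttGCGCAGGCGCggcgcc
SDHA, NRF1 motif, chr5:218197-218218, plus strand: catggtGCGCAGGCGCgatgtc
SDHA, NRF1 motif, chr5:218246-218267, plus strand: cgtggtGCGCAGGCGCggtatc
SDHA, NRF1 motif, chr5:218295-218316, plus strand: tgtggtGCGCAGGCGCagtctg
NDUFA13, GABPA motif, chr19:19516209-19516228, plus strand: ccgggaCCGGAAGTgtggga
NDUFS1, GABPA motif, chr2:206159589-206159608, plus strand: gttccgCCGGAAGTggcccc
UQCR10, NRF1 motif, chr22:29767355-29767376, plus strand: gccccaGCGCAGGCGCggtggc
ATP5O, NRF1 motif, chr21:33915813-33915834, plus strand: gcaaggGCGCACGCGCgcgttg
NDUFA11, NRF1 motif, chr19:5903873-5903894, plus strand: gatcgcGCGCACGCGCcgggga
SDHB, YY1 motif, chr1:17054008-17054028, minus strand: ggagccAAGATGGCGgcggtg

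The SDHA window held 4 NRF1 matches at a regular spacing of 49 bases, each with the same 10 motif letters. The NDUFB4 window held 3. None of the 11 complex IV windows held the NRF1 letters, while 4 of 7 complex III windows did. The windows of COX7B2, ATP5A1, ATP5F1, NDUFA5 and CYCS held none of these motifs. Members with and without an NRF1 match had the same median change in BM1 (-0.14 for 15 and for 50 genes, log2). In LM2 the medians were 0.07 and -0.03. For GABPA the medians with and without a match were -0.20 and -0.14 in BM1 and -0.10 and 0.00 in LM2, and for YY1 they were 0.06 and -0.15 in BM1 and 0.00 and -0.01 in LM2. These differences were not tested.

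The effect of hnRNPM knockdown on the subunit genes was then examined over both lines. None of the 81 members passed an adjusted p of 0.05 in limma, in a fit that called 5.47% of all genes tested (2.71% higher and 2.76% lower), and 2 passed an unadjusted p of 0.05 (24.9% of all genes). Those 2 were UQCRB, which stood higher in both knockdown libraries, and NDUFA13, which stood lower. That share depended on the settings: limma called 762 genes here, but 27 with a pseudocount of 0.1, 16 with scaling without the mitochondrial genome, and 0 with no filter, with quantile normalization or in unpaired fits (3735, 3255 and, with all libraries, 1548 at an unadjusted p of 0.05). In data simulated for this comparison on 13928 genes the fit recovered 22.4% of genes changed by 1 on the log2 scale and 96.8% of those changed by 2, and 11.0% of its calls were false. Changes of up to 2-fold in single subunit genes could therefore be missed.

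Most changes were small. Within BM1, 3 of the 81 members differed at least 2-fold between knockdown and control (16.3% of all genes), namely SDHC, NDUFS1 and NDUFA5. Within LM2, SDHC was the 1 member to do so (8.06% of all genes). In 33 members (40.7%) the levels stayed within 1.2-fold in both lines, against 16.6% of all genes and 18.0% of genes with a mean of at least 10 FPKM. The median change of the members was -0.13 in BM1 and -0.02 in LM2 (log2), beside 0.00 and -0.04 over all genes. The small shift in BM1 depended on the scaling, with a median of -0.02 after scaling without the mitochondrial genome and 0.03 after removal of the trend with transcript length and GC content. In BM1, 56 members stood lower in the knockdown library (49.7% of all genes), but 41 after scaling without the mitochondrial genome and 39 after the length and GC correction. In LM2, 43 stood lower (53.5% of all genes).

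Across the 81 members, Pearson's r between the BM1 and LM2 changes was -0.09, and Spearman's rho was 0.24. Without SDHC these were 0.28 and 0.29, and over all 13928 genes both were 0.55. These are correlations across genes of the same 4 libraries, and genes are not independent replicates. The members split into 15 that stood higher in the knockdown in both lines (33.0% of all genes), 33 that stood lower in both (36.2%), 23 lower in BM1 and higher in LM2 (13.6%) and 10 the other way (17.3%). The count of 23 was 12 after the length and GC correction and 29 with size factors. Opposite changes of at least 1.2-fold in each line were seen in 5 members (6.73% of all genes). In 13 members both knockdown libraries lay below both controls (22.6% of all genes), and in 9 both lay above them (21.8%).

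**Figure D2:**
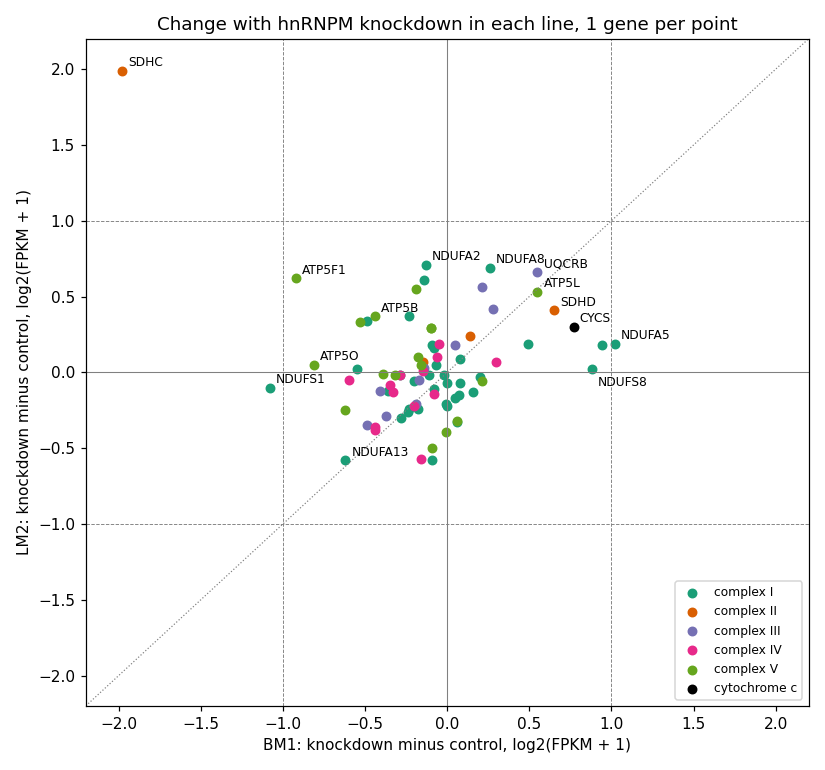
Knockdown minus control in BM1 (x axis) and LM2 (y axis), in log2(FPKM + 1), for the 81 nuclear respiratory chain genes, with 1 point per gene coloured by complex. Dashed lines mark 2-fold changes and the dotted line marks equal changes. Most genes cluster around 0, and SDHC stands alone at -1.98 in BM1 and 1.99 in LM2.

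Complex I, which oxidises NADH, had nearly the same summed level in the 4 libraries: 2003 and 2031 FPKM in BM1 and 2021 and 2015 FPKM in LM2. Its parts were less even, since the median level of its genes was 47.2 and 37.8 FPKM in BM1 and 47.2 and 46.6 FPKM in LM2. The membrane arm summed to 1312 and 1204 FPKM in BM1, while NDUFV2 and NDUFS8, described below, had high values in the BM1 knockdown. Of its 36 members, 14 stood lower in both lines and 6 higher in both. The N module, which holds the NADH-binding flavin site, had 10 members with median changes of -0.04 in BM1 and 0.12 in LM2. The Q module, where ubiquinone is reduced, had 6 members with medians of 0.00 and 0.04. In the membrane arm, which pumps protons, 12 of 20 members stood lower in both lines, with medians of -0.15 and -0.14. That count was 10 with size factors, 9 with quantile normalization, 7 after scaling without the mitochondrial genome and 6 after the length and GC correction, which turned the BM1 median to 0.09.

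NDUFA13, a membrane-arm subunit also known as GRIM-19, stood at 47.2 and 30.3 FPKM in BM1, with 48.2 and 32.0 FPKM in LM2. Both knockdown libraries lay below both controls, by similar amounts. Over both lines this was -0.60 ± 0.25 (limma, adjusted p 0.182). NDUFA13 overlaps YJEFN3 and another gene on the same strand, so its value is uncertain, and its GABPA letters are given above. NDUFA5, an accessory subunit next to the ubiquinone site, stood at 12.3 and 25.9 FPKM in BM1, with 19.3 and 22.2 FPKM in LM2, so the BM1 control was the low library (0.60 ± 0.29, limma, adjusted p 0.234). After the length and GC correction this was 0.17. NDUFA5 no longer reached 2-fold in BM1 there, with size factors or with quantile normalization. NDUFS1, the largest iron-sulphur subunit of the NADH-binding module, stood at 30.8 FPKM in the BM1 control and at 14, 11.7 and 10.8 FPKM in the BM1 knockdown, LM2 control and LM2 knockdown libraries.

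NDUFS1 was thus high in the BM1 control alone. Its change over both lines was -0.59 ± 0.30 (log2, limma, adjusted p 0.264), while an unpaired fit without the BM1 control gave 0.07. The pairs themselves gave -1.08 in BM1 and -0.10 in LM2. After scaling without the mitochondrial genome, NDUFS1 no longer reached 2-fold in BM1. A similar single-library pattern was seen in the other direction for the iron-sulphur subunit genes NDUFV2 and NDUFS8. NDUFV2 stood at 208 FPKM in the BM1 knockdown against 73.2 to 108 FPKM elsewhere, and NDUFS8 at 119 FPKM there against 64.5 to 79.1 FPKM. Neither passed the test (limma, adjusted p 0.261 and 0.373). NDUFV2 overlaps an antisense gene, NDUFV2-AS1, which stood at 0.398 to 0.925 FPKM. At the other extreme, NDUFS6, needed for assembly of the NADH-binding module, lay between 47.4 and 50.9 FPKM in the 4 libraries.

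Complex II, succinate dehydrogenase, joins the citric acid cycle to the chain and has 4 subunits. Its flavoprotein gene SDHA, with the 4 regularly spaced NRF1 matches, stood at 81.6 and 73.4 FPKM in BM1, with 64.3 and 67.6 FPKM in LM2 (-0.04 ± 0.25, limma, adjusted p 0.941). The iron-sulphur subunit gene SDHB stood at 111 and 122 FPKM in BM1, with 72.9 and 86.1 FPKM in LM2 (0.19 ± 0.25, limma, adjusted p 0.688). The membrane anchor gene SDHD stood at 56.4 and 89.1 FPKM in BM1, with 74.8 and 99.8 FPKM in LM2 (0.53 ± 0.25, limma, adjusted p 0.237). Both SDHD knockdown libraries lay above both controls. SDHD overlaps TIMM8B on the opposite strand, which stood at 42.1 and 15.4 FPKM in BM1, with 18.6 and 18.7 FPKM in LM2, so the SDHD and TIMM8B values did not move together.

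SDHC, the other membrane anchor (ENSG00000143252.14, chromosome 1, 161284047 to 161345130, plus strand, GRCh37), had the largest changes of any member. It stood at 42.6 and 10.1 FPKM in BM1, with 13.6 and 57.0 FPKM in LM2. The BM1 knockdown and LM2 control libraries were low and the other pair high. The level in the knockdown was 23.7% of control in BM1 and 420% of control in LM2, or -1.98 and 1.99 on the log2 scale. Averaged over the lines, the change was 0.01 ± 0.72 (limma, adjusted p 0.996), with the wide error coming from the opposite directions. Under the scalings tried it stayed between -2.19 and -1.86 in BM1 and between 1.91 and 2.04 in LM2. With 4 libraries the difference between the lines was not tested. CFAP126, which overlaps SDHC on the opposite strand, stood at 2.91 and 0.818 FPKM in BM1, with 5.16 and 1.38 FPKM in LM2. Its values were lower in both knockdown libraries, unlike those of SDHC.

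Complex III passes electrons from ubiquinol to cytochrome c. Its summed level was 886 FPKM in the BM1 control and 785, 749 and 765 FPKM in the BM1 knockdown, LM2 control and LM2 knockdown libraries. Of 10 members, 5 stood lower in the knockdown in both lines and 4 higher in both. The members that stood lower in both lines included CYC1, which encodes the haem-bearing cytochrome c1, at 157 and 111 FPKM in BM1, with 106 and 82.6 FPKM in LM2 (-0.42 ± 0.25, limma, adjusted p 0.335). UQCRH, the hinge protein that binds cytochrome c1, stood at 255 and 197 FPKM in BM1, with 167 and 137 FPKM in LM2 (-0.33 ± 0.25, limma, adjusted p 0.455). Its retrocopy UQCRHL ran parallel at 4.78 and 4.07 FPKM and at 3.55 and 2.93 FPKM, and the sources used here do not say how the counting split reads between this near-identical pair.

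UQCRB, a small subunit near the ubiquinone sites, had the smallest p-value of all members for the knockdown in the fit to the deposited values. It stood at 66.7 and 98.3 FPKM in BM1, with 58.8 and 93.7 FPKM in LM2, with both knockdown libraries above both controls (0.61 ± 0.25, limma, adjusted p 0.179). After the length and GC correction its change was 0.22 (adjusted p 0.603 in limma). That correction also moved CYC1 to -0.23 and CYCS, given below, to 0.31. UQCR10, another small subunit, stood at 61.4 and 71.4 FPKM in BM1, with 49.5 and 73.2 FPKM in LM2 (0.38 ± 0.26, limma, adjusted p 0.390). UQCRFS1, the Rieske iron-sulphur protein, also stood higher in both knockdown libraries than in both controls, at 34.4 and 41.9 FPKM in BM1, with 35.7 and 48.2 FPKM in LM2. Its processed copy UQCRFS1P1, not a member, stood at 7.59, 12.3, 11.3 and 12.8 FPKM in the same order. The core proteins UQCRC1 and UQCRC2 were nearly level, at 63.4 to 73.0 FPKM and 39.4 to 46.4 FPKM. CYCS, the gene of cytochrome c, which shuttles electrons to complex IV and triggers apoptosis when released, stood at 48.5 and 83.2 FPKM in BM1, with 51.0 and 63.1 FPKM in LM2 (0.53 ± 0.26, limma, adjusted p 0.250).

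Complex IV, cytochrome c oxidase, stood lower in both knockdown libraries as a sum: 1833 and 1606 FPKM in BM1, with 1546 and 1420 FPKM in LM2. Of 13 members, 9 were lower in both lines and 1, COX7B, higher in both, with median changes of -0.20 and -0.08. No member passed the test. The count lower in both lines was 8 with size factors, 7 after scaling without the mitochondrial genome and 6 with quantile normalization, which brought the BM1 median to 0.00. In 4 of the 13 members, COX5A, COX6B1, COX7A2 and COX8A, both knockdown libraries lay below both controls (22.6% of all genes).

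COX5A, a matrix-side subunit, stood at 89.9 and 66 FPKM in BM1, with 114 and 87.4 FPKM in LM2 (-0.41 ± 0.25, limma, adjusted p 0.346). NDUFA4, first assigned to complex I and since placed in complex IV, stood at 122 and 89.6 FPKM in BM1, with 65.2 and 50.6 FPKM in LM2 (-0.40 ± 0.25, limma, adjusted p 0.362). COX4I1, the regulatory subunit at which ATP acts, stood at 173 and 154 FPKM in BM1, with 109 and 72.6 FPKM in LM2 (-0.37 ± 0.26, limma, adjusted p 0.418). The pairs agreed in sign for both, at -0.44 in BM1 and -0.36 in LM2 for NDUFA4 and at -0.16 and -0.57 for COX4I1. After the length and GC correction the changes were -0.73 for NDUFA4 (adjusted p 0.130 in limma) and -0.19 for COX4I1. EMC8, which overlaps COX4I1 on the opposite strand at positions 85832239 to 85833214, stood at 29.6 and 25.1 FPKM in BM1. In LM2 it stood at 19.0 and 16.5 FPKM, so its values went in the same directions as those of COX4I1. Of the subunits with a tissue-restricted second form, the common forms were well above the filter. COX6A1 stood at 382 and 366 FPKM in BM1, with 237 and 253 FPKM in LM2, beside its processed copy COX6A1P2 at 36.9 to 55.9 FPKM. COX6B1 lay between 112 and 142 FPKM, COX7A2 between 79.3 and 97.0 FPKM and COX8A between 308 and 382 FPKM. Their partners COX4I2, COX6A2, COX6B2, COX7A1 and COX8C, and ATP5L2 beside ATP5L, were not analysed here.

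In complex V the sign of the change often differed between the lines. Of its 17 members, 9 stood lower in the BM1 knockdown and higher in the LM2 knockdown (13.6% of all genes). In BM1, 14 stood lower whatever their direction in LM2 (49.7% of all genes). Of the 9, only ATP5F1, ATP5B and ATP5G3 changed at least 1.2-fold in each line. Others were near level in a line, such as ATP5O and ATP5SL at 0.05 in LM2 (log2). The median change was -0.18 in BM1 and 0.05 in LM2. The summed level was 2419 and 1986 FPKM in BM1, and 1833 and 2094 FPKM in LM2. The count of 9 ranged from 7 (quantile normalization) to 11 (size factors) under the scalings tried. Without ATP5S and ATP5SL it was 8 of 15.

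In the F1 head, where ATP is made, ATP5B stood at 463 and 341 FPKM in BM1, with 268 and 346 FPKM in LM2, or -0.44 and 0.37 on the log2 scale. In the peripheral stalk that holds the head in place, ATP5F1 (subunit b; ENSG00000116459.10, chromosome 1, 111991486 to 112005395, plus strand, GRCh37) stood at 131 and 68.7 FPKM in BM1, with 140 and 214 FPKM in LM2, or -0.92 and 0.62. The controls of the lines were alike for ATP5F1 and the knockdown libraries lay on opposite sides of them. WDR77, which overlaps ATP5F1 on the opposite strand, stood at 33.7 and 26.8 FPKM in BM1, with 26.7 and 38.6 FPKM in LM2, in the same directions as ATP5F1. The labels call the libraries stranded, and the sources used here do not say whether strand was used in counting. Reads in the stretch that both genes cover, 111991486 to 111991998, may therefore not have been told apart. The rest of ATP5F1 does not overlap WDR77.

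The 10 stalk and membrane subunits were mixed, with 6 lower in BM1 and higher in LM2 (13.6% of all genes). ATP5L (subunit g) stood at 63.4 and 93.4 FPKM in BM1, with 71.9 and 105 FPKM in LM2, with both knockdown libraries above both controls (0.54 ± 0.25, limma, adjusted p 0.222, and 0.28 after the length and GC correction). ATP5O, the stalk subunit known for conferring oligomycin sensitivity, stood at 92.5 FPKM in the BM1 control and at 52.4, 48.9 and 50.7 FPKM in the others, so its change of -0.38 ± 0.29 (limma, adjusted p 0.455) came from 1 library and was 0.07 in an unpaired fit without it. Subunit c, which forms the rotating ring, is made from 3 genes with the same mature protein. ATP5G1 stood at 129 and 103 FPKM in BM1, with 101 and 99.8 FPKM in LM2. ATP5G2 stood at 146 and 94.8 FPKM and at 128 and 108 FPKM (-0.44 ± 0.26, limma, adjusted p 0.334, and -0.25 after the length and GC correction), and ATP5G3 at 57.0 and 39.3 FPKM and at 44.0 and 55.7 FPKM. All 3 were lower in the BM1 knockdown, and in LM2 they differed in direction.

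**Figure D3:**
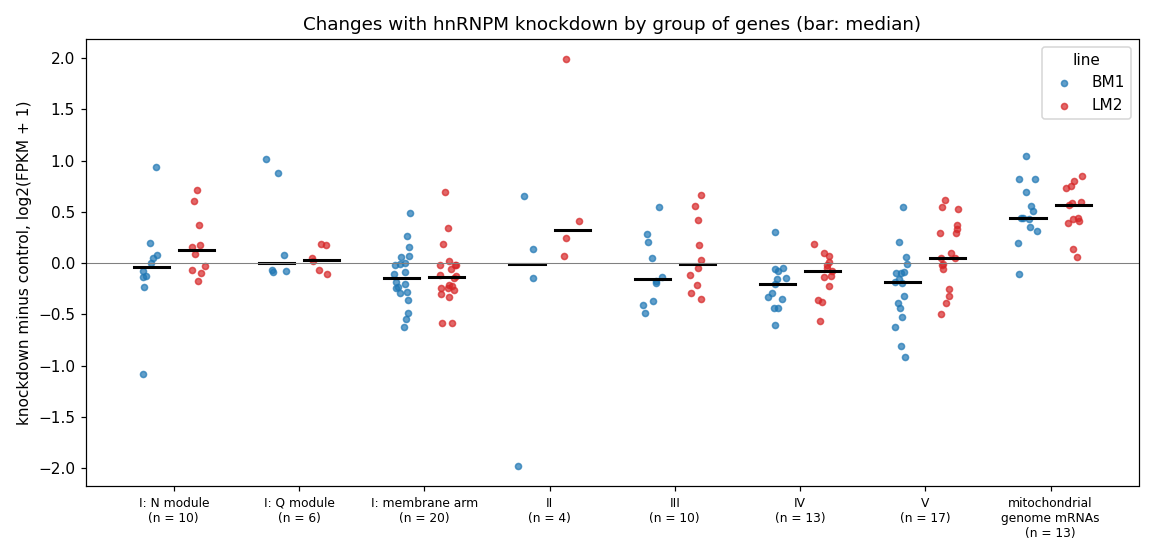
Knockdown minus control in log2(FPKM + 1) for each gene (points) in BM1 (blue) and LM2 (red), by module of complex I, by complex, and for the mRNAs of the mitochondrial genome, with the median as a black bar. Nuclear groups scatter around 0, complex V lies mostly below 0 in BM1 with a median of -0.18, and the mitochondrial mRNAs lie above 0 with medians of 0.44 and 0.57.

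The mRNAs that the mitochondrial genome contributes to the same complexes stood apart from the nuclear ones. Of the 13 mitochondrial mRNAs, 12 stood higher in the knockdown in both lines (33.0% of all genes), with median changes of 0.44 in BM1 and 0.57 in LM2. In 10 both knockdown libraries lay above both controls (21.8% of all genes). None of the 13 passed an adjusted p of 0.05 in limma (5.47% of all genes), and 6 passed an unadjusted p of 0.05 (24.9% of all genes). The count higher in both lines was 8 with quantile normalization, 10 after the length and GC correction and 13 after scaling without the mitochondrial genome. With quantile normalization 2 stood lower in both lines, and the LM2 median was 0.27. The 13 mRNAs come from the same genome, so their count is not one of independent genes. MT-CYB, the cytochrome b of complex III, stood at 958 and 1986 FPKM in BM1, with 1044 and 1885 FPKM in LM2 (0.95 ± 0.25, limma, adjusted p 0.0643). Summed over the 13 mRNAs, the level was 33135 and 45371 FPKM in BM1, with 28837 and 40663 FPKM in LM2. The ratio of the mitochondrial to the nuclear sum was 4.43 in the BM1 control and 4.49 in the LM2 control, and 6.69 and 6.10 in the corresponding knockdown libraries. This ratio was thus alike in both controls and higher in both knockdowns, and scaling a library by a factor does not alter it. The libraries were selected for polyadenylated RNA, and the part that this selection or RNA quality has in the ratio was not tested.

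Other genes of the pathway gave no calls for the knockdown, beside 5.47% of all genes at the adjusted threshold and 24.9% at the unadjusted one. Of 49 assembly factors, which build the complexes and are not part of them, 0 passed the adjusted threshold in limma and 5 the unadjusted one, and the medians were 0.07 and 0.05 in the BM1 and LM2 lines. SDHAF2, which attaches flavin to SDHA, stood at 16.9 and 31.7 FPKM in BM1, with 12.8 and 27.5 FPKM in LM2 (0.96 ± 0.25, limma, adjusted p 0.0629). LRPPRC, which stabilises mitochondrial mRNAs, stood at 28.5 and 75.4 FPKM in BM1, with 32.3 and 41.4 FPKM in LM2 (limma, adjusted p 0.130). The others of the 5 were TTC19 and TMEM70, higher in both lines, and COA1, lower in both. COA1 stood at 34.8 and 20.1 FPKM in BM1, with 16.2 and 10.0 FPKM in LM2 (-0.70 ± 0.25, limma, adjusted p 0.135). Of 14 tested regulators of mitochondrial gene expression, 0 passed and 1 passed unadjusted. That regulator was PPARGC1A, a coactivator of mitochondrial biogenesis, low at 0.678 and 3.02 FPKM in BM1, with 0.638 and 1.55 FPKM in LM2 (limma, adjusted p 0.0795). PPARGC1A passed the filter on mean level only through its knockdown values, so its passing already favoured a higher level in the knockdown. NRF1 itself stood at 9.83 and 5.63 FPKM in BM1, with 8.42 and 6.52 FPKM in LM2 (limma, adjusted p 0.259). Of 14 citric acid cycle genes, 0 passed, 1 passed unadjusted and 8 stood lower in both lines, with medians of -0.28 and -0.16. After the length and GC correction 6 stood lower in both, with medians of -0.02 and -0.08. Of the nuclear subunit genes with other names, NDUFAB1 stood at 74.4 and 51.6 FPKM in BM1, with 59.4 and 69.5 FPKM in LM2, USMG5 at 220 and 292 FPKM and at 182 and 260 FPKM, and C14orf2 at 41.2 and 43.9 FPKM and at 68.0 and 67.1 FPKM.

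The lines were compared next, over both treatments. LM2 differed from BM1 in 2 of 81 members at an adjusted p of 0.05 in limma (4.35% of all genes tested), and both were lower in LM2 (2.04% of all genes). At an unadjusted p of 0.05 there were 15 (22.4% of all genes). In 28 members both LM2 libraries lay below both BM1 libraries (21.6% of all genes), and in 19 both lay above (19.4%). Both directions were thus present, and the median difference over the members was -0.02 (log2, LM2 minus BM1).

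COX7B2 (ENSG00000170516.16, chromosome 4, 46736844 to 46911252, minus strand, GRCh37) encodes a second form of complex IV subunit VIIb, known mainly from testis. It stood at 50.2 and 32.7 FPKM in BM1, with 0.222 and 0.178 FPKM in LM2. In BM1 it was as abundant as its common partner COX7B, which stood at 32.3 and 40.1 FPKM there and at 48.4 and 50.9 FPKM in LM2. In LM2 the 1 member with lower values was NDUFA4L2. The difference was -5.11 ± 0.27 (log2, limma, adjusted p 5.77e-05), and it is understated by the pseudocount of 1: with 0.1 it was -7.08. COX7B2 passed the filter on mean level only through its BM1 values, so its passing already implied a difference between the lines. The adjusted p stayed below the threshold in every alternative run except the fit without a filter on low values, where the adjusted p in limma was 0.213. That fit called 0 genes of any kind between the lines.

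ATP5A1 (ENSG00000152234.15, chromosome 18, 43660214 to 43684300, minus strand, GRCh37), the alpha subunit of the F1 head, stood at 294 and 258 FPKM in BM1, with 76.8 and 113 FPKM in LM2. The difference was -1.56 ± 0.28 (log2, limma, adjusted p 0.0203). The alpha subunit pairs with the beta subunit in equal number in the head, and ATP5B differed less between the lines (-0.38 ± 0.29, limma, adjusted p 0.475). The call of ATP5A1 was lost with a pseudocount of 0.1 (adjusted p 0.10 in limma), with no filter (0.213), with quantile normalization (0.0756), after scaling without the mitochondrial genome (0.0700) and in an unpaired fit of all 4 libraries (0.271). In the same order, these fits called 216, 0, 104, 154 and 11 genes of any kind between the lines, against 606 in the main fit. Unpaired fits that also omitted 1 library gave 0.250 to 0.931, with differences between -1.83 and -1.28. HAUS1, which overlaps ATP5A1 on the opposite strand, lay between 18.4 and 26.0 FPKM in all libraries.

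The next largest differences did not pass the test. NDUFA11, a membrane-arm subunit of complex I, was higher in LM2, at 86.5 and 73.3 FPKM in BM1, with 174 and 145 FPKM in LM2 (0.99 ± 0.25, limma, adjusted p 0.0650), and passed at 0.0469 among genes with a mean of at least 10 FPKM. NDUFV2 (-0.94 ± 0.28, limma, adjusted p 0.0981) and COX4I1 (-0.87 ± 0.26, limma, adjusted p 0.0974) were lower in LM2. The iron-sulphur subunit genes of complex I did not go one way. NDUFS7, in the ubiquinone-reducing module, stood at 18.2 and 19.2 FPKM in BM1, with 34.9 and 33.1 FPKM in LM2. Control and knockdown of a line nearly coincided for it, and the LM2 values were the higher ones (0.83 ± 0.25, limma, adjusted p 0.101). NDUFS1 and NDUFV2, in the neighbouring module, had lower values in LM2.

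**Figure D4:**
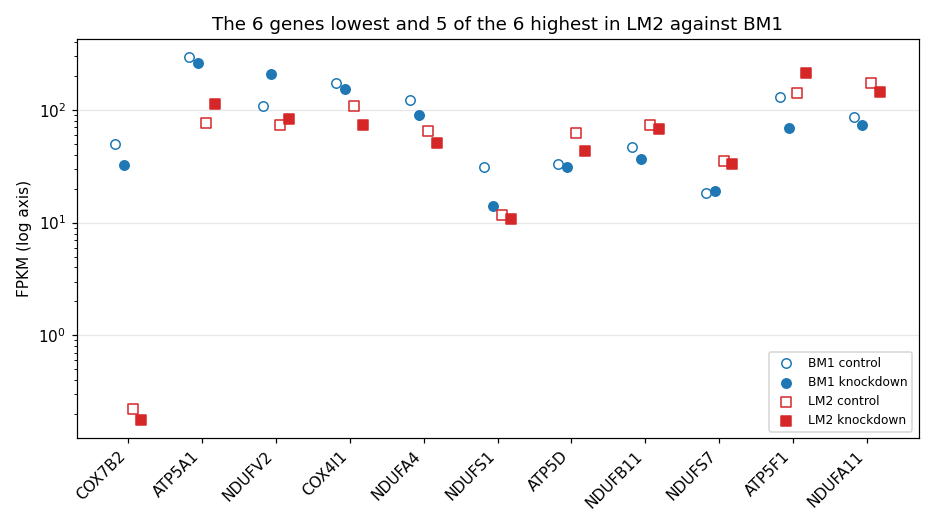
FPKM (log axis) of the 6 nuclear respiratory chain genes lowest and 5 of the 6 highest in LM2 against BM1, in the BM1 control (open circle), BM1 knockdown (filled circle), LM2 control (open square) and LM2 knockdown (filled square) libraries. COX7B2 lies below 1 FPKM in both LM2 libraries, at 0.222 and 0.178, and ATP5A1 at 76.8 and 113 against 294 and 258 in BM1.

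Gene overlap limits these values further. Of the 81 members, 41 overlap another gene of the table, 33 on the opposite strand and 16 on the same strand. Any shared base counted as an overlap: ATP5A1 and HAUS1, for example, share only positions 43684298 to 43684300. Among the 40 without overlap, NDUFA5 remained at 2-fold in BM1 and COX7B2 remained called between the lines, and none passed for the knockdown (1 at an unadjusted p of 0.05 in limma). These were read from the same fit, so members such as ATP5A1 and SDHC are missing only because they were left out.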

How the data were processed

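Polyadenylated RNA was measured in 4 libraries, 1 per line and treatment. The authors deposited 1 table of FPKM values with 1 column per library, per the labels; STAR 2.5.3a, Cuffdiff 2.2.1 and GRCh37 are named in the submitters' processing notes, while the sources used here do not name the annotation release or the strand setting. FPKM are scaled to library size and transcript length, so abundant mitochondrial RNA lowers the values of all other genes. Of 20369 entries, 40 with 3 repeated IDs (MUC5AC, ECSCR, COPG2) were left out. Depth was read from 1623 low genes, whose FPKM times length fell within 0.02 of whole multiples of 1 step for 32.9% to 43.5% of values; most were not whole, so no count test was run.

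Values were analysed as log2(FPKM + 1), which understates changes of low genes. The 13928 genes whose mean FPKM reached 1 were fitted with limma 3.58.1 in R 4.3.3, with terms for line and treatment (1 residual degree of freedom). Tests were two-sided, with Benjamini-Hochberg adjustment over all these genes and a threshold of 0.05. The line pairs the libraries, because control and knockdown come from the same cell line (r of 0.545 between deviations of same-line libraries). Within a line a 2-fold rule and no test was used. An exact permutation test on 2 pairs cannot give a two-sided p below 0.5. The script was tested on simulated data.

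Named genes were HNRNPM, members called in either contrast, the 3 per complex with the largest average knockdown change, the 3 with the largest opposite changes, the 5 with the largest line difference, and subunits with a second form with their partners; other members and pathway genes were named after their values were seen, as examples. The members and lists were chosen with earlier results of these data known. Alternatives were pseudocounts of 0.1 and 0.5, no filter, a mean of at least 10 FPKM, size factors, quantile normalization, scaling without the mitochondrial genome, removal of the length and GC trend (13723 genes had both), no pairing, leaving out each library, a 1.5-fold rule, and leaving out overlapping members. Promoters came from a RefSeq table of GRCh38.p14 and were matched by symbol; gene coordinates are those of the deposited table, and no coordinates were converted. The values of 1 member are not reported here by name; it is included in all counts and medians.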

Additional observations from a re-analysis of the deposited data

Results flagged for a closer look

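In 5 of the 81 members the knockdown library lay at least 1.2-fold on opposite sides of the control in the lines. That share is close to the 6.73% of all genes tested, so such changes were not more common among the members. Each of the 5 was lower in BM1 and higher in LM2, and the share of all genes in that direction was not examined. The changes in BM1 and LM2 were -1.98 and 1.99 for SDHC, -0.92 and 0.62 for ATP5F1, -0.44 and 0.37 for ATP5B, -0.53 and 0.33 for ATP5G3 and -0.49 and 0.34 for NDUFB4 (log2). With 1 library per line and treatment the difference between the lines was not tested. SDHC and ATP5F1 met the rule under each scaling tried. ATP5B did not with quantile normalization (-0.25 in BM1) or after the length and GC correction (-0.18 in BM1), and ATP5G3 and NDUFB4 did not after that correction (0.23 and 0.26 in LM2).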

How the results depend on the processing

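The count of members called for the knockdown was 0 in all alternatives. In several of these limma called few or no genes of any kind, so that the members' count could hardly differ from 0: 27 with a pseudocount of 0.1, 16 without the mitochondrial genome, and 0 with no filter, quantile normalization, no pairing or any library left out (3735, 3255, 1548 and 860 to 1943 at an unadjusted p of 0.05). The count of 2 called between the lines was 1 with a pseudocount of 0.1, quantile normalization or scaling without the mitochondrial genome. It was also 1 without overlapping members or without the replicate block (no pairing), and 0 with no filter. Over all genes, limma called 606 between the lines at the main setting. With a pseudocount of 0.1 it called 216, with quantile normalization 104 and without the mitochondrial genome 154. Without pairing it called 11. With no filter it called 0, so no member could pass there. The count at 2-fold in BM1 (3) was 5 after the length and GC correction, 4 with quantile normalization and 2 with size factors. It was 1 without overlapping members and 12 at 1.5-fold. Only SDHC was at 2-fold in BM1 under each scaling tried. The count at 2-fold in LM2 (1) was 0 without overlapping members and 6 at 1.5-fold. Overlapping members were only left out of these counts, and their values were not changed. The median change in BM1 (-0.13) was -0.02 after scaling without the mitochondrial genome, which moved the median of all genes to 0.10, and 0.03 after the length and GC correction. Knockdown changes that turned sign were those of SDHA (0.02 with quantile normalization, 0.04 without the mitochondrial genome, 0.15 after the length and GC correction). With each library left out in turn, in fits that also dropped the pairing and so take in the difference between the lines, the change ranged from -0.21 to 0.13 for SDHA, from -0.12 to 0.49 for SDHB, from -1.25 to 0.07 for NDUFS1, from -0.84 to 0.05 for NDUFA4, from -0.91 to 0.17 for COX4I1 and from -0.83 to 0.07 for ATP5O. Within the pairs, NDUFS1, NDUFA4, COX4I1 and SDHB had one sign in both lines. The replicate block changed no other call among the members. The cause of the other differences was not tested. With 1 residual degree of freedom and 1 library per arm, changes of up to 2-fold in a single gene may be missed. Larger changes that differ between the lines, as for SDHC, may be missed as well. The low FPKM of COX7B2 in LM2 and of NDUFA4L2 rest on few fragments.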
